A study of Mus musculus with 12 samples.

Results

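The genes described here are 7 members of the HoxA cluster (Hoxa3, Hoxa4, Hoxa5, Hoxa6, Hoxa7, Hoxa9 and Hoxa10), the cofactor genes Meis1 and Pbx3, and Mn1. They were chosen by symbol: a probe belonged to a gene where its RefSeq accession mapped to that symbol, and the brightest probe stood for the gene. All 10 genes had a probe, 11 probes in all, out of 20284 genes with a named probe, and all 10 were among the 13708 genes tested. A gene was tested where its probe was well above background, by the scanner software's own flag, on at least 2 of the 12 arrays. The arrays were one-colour Agilent arrays of sorted bone marrow cells from recipient mice on the C57BL/6 strain that had been repopulated with fetal liver cells. Granulocyte-macrophage progenitors (GMPs), which give rise to granulocytes and macrophages, and LSK cells, the fraction that holds stem and multipotent progenitor cells, were each measured in 6 conditions. These were the Tet2KD/KD Ezh2-/- double mutant with RAEB (refractory anaemia with excess blasts), the double mutant with MDS/MPN (an overlap of myelodysplastic and myeloproliferative disease), the double mutant without disease, Ezh2-/-, Tet2KD/KD and wild-type. Each cell type and condition had 1 array. The labels give neither the age of the mice, nor the number of mice behind an RNA, nor whether host cells left in the recipients were excluded.

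HoxA proteins are homeodomain transcription factors that keep blood stem and progenitor cells in a self-renewing state, and most of them are shut down as myeloid cells mature. MEIS1 and PBX3 belong to the TALE class of homeodomain proteins and bind DNA together with HOXA9 and its neighbours, while MN1 is a transcriptional coactivator whose forced expression causes a myeloid leukaemia in mice that depends on Hoxa9 and Meis1. Ezh2 encodes a methyltransferase of PRC2, a Polycomb complex that places a repressive mark on histone H3 at many silent developmental genes, and Tet2 oxidises methylated cytosine, which in mammals lies mostly in CG dinucleotides.

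Because the mutations act on methylated DNA and on Polycomb targets, the CG content of the members' promoters is shown for the genes whose signals are described most closely below. The sequences are RefSeq's for the mouse build GRCm38.p6, each 250 bases upstream of a transcript start, 5′ to 3′ on the gene's own strand, with every CG dinucleotide in capitals. CG reads the same on both strands. The first belongs to Hoxa9 at chr6:52227371-52227620, the next pair to separate starts of Hoxa10 at chr6:52240855-52241104 and chr6:52234940-52235189, and the last to Meis1 at chr11:19018970-19019219, all on the minus strand.
Hoxa9: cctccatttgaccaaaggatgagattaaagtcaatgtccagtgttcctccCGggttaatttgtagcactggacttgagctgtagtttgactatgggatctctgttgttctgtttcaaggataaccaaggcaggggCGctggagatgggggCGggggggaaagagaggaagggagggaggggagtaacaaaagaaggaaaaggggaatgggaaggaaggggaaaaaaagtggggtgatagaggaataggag
Hoxa10 first start: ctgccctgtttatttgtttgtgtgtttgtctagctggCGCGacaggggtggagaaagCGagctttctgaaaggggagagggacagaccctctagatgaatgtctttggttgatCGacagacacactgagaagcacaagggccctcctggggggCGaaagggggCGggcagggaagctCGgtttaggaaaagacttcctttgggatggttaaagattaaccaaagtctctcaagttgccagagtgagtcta
Hoxa10 second start: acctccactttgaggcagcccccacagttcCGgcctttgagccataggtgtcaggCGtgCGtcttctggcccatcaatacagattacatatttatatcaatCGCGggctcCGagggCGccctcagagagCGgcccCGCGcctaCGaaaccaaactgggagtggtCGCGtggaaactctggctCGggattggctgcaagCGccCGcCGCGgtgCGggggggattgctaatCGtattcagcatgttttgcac
Meis1: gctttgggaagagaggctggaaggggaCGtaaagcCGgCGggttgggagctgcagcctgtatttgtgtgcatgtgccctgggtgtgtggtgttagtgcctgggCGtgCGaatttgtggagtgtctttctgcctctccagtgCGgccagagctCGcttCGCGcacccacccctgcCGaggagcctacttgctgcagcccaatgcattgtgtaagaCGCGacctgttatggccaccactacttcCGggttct
The Hoxa9 window held 3 CG dinucleotides, and 71.0% of the 32851 promoter windows in the same table held as many or more. The Hoxa10 windows held 7 and 20, which 46.3% and 17.9% of all windows matched or exceeded, and the Meis1 window held 13, matched or exceeded by 31.5%. Windows were found for 7 of the 10 genes, 8 in all, and ranged from 3 CG dinucleotides at Hoxa9 to 28 at Hoxa5, against a median of 6 over all promoters. Hoxa4, Pbx3 and Mn1 had no window. These counts describe the letters and say nothing of methylation, which was not measured.

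Values below are log2 of the processed signal minus log2 of the same array's 75th percentile over gene spots, so 0 is that percentile, and a difference is a log2 difference, given with the standard error (SE) that limma estimated. Since no group was repeated, the SE reflects how far an effect differed between cell types or conditions and not the spread between mice. Between 45.6 and 52.3% of gene spots were well above background per array, and none was saturated. Tet2 itself, at -0.64 to -3.09 on the 4 GMP arrays with the knockdown against 1.51 and 1.57 without, and at -1.61 to -0.79 against 0.12 and 0.44 in LSK cells, was lower with the knockdown in 4 of 4 matched pairs without disease (difference -1.92, SE 0.27, adjusted p = 0.381). Ezh2 read 2.50 to 3.40 on the 12 arrays, and since the place of its probe relative to the deletion was not given, the Ezh2 genotype was not checked. Xist read 1.17 to 2.57 on the wild-type, disease-free double mutant and diseased LSK arrays and -6.15 to -4.36 on the other 6, a pattern that coincides with the interaction of Tet2 and Ezh2 genotype and separates the diseased GMP arrays from the diseased LSK arrays. Eif2s3y, sex-linked as Xist is, ran the other way, at -6.76 to -6.20 where Xist was high and 0.82 to 2.68 on the other 6. In RAEB and MDS/MPN the GMP and LSK arrays thus differ in sex-linked signals, whose part in the comparisons was not tested. Slides followed disease: 1 slide held the 8 disease-free arrays, another the diseased LSK arrays and a further one the diseased GMP arrays. The LSK and stem marker list was well above background for 10 of 10 genes on every LSK array and for 5 to 8 on GMP arrays, and the GMP marker list summed to 4194 to 6605 (linear signal, where 1 is the 75th percentile) on GMP arrays against 303 to 1375 on LSK arrays.

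GMPs were set against LSK cells to describe how the genes differ between the committed and the more primitive population, over 12 arrays with condition as a block. Hoxa3, Hoxa5, Hoxa7, Hoxa9, Hoxa10, Meis1, Pbx3 and Mn1 fell in GMPs: 8 of the 10 genes passed the threshold, all lower, where 18.9% of all 13708 genes were called lower and 25.7% higher. The median difference was -1.66 over the 10 genes and 0.16 over all genes tested, and that of all genes moved to 0.01 with quantile normalisation and to -0.07 with the percentile taken over detected probes. The 8 genes passed and were lower under both of these scalings too. For 7 of the 10 genes (Hoxa3, Hoxa5, Hoxa7, Hoxa9, Hoxa10, Meis1 and Mn1) all 6 GMP arrays lay below all 6 LSK arrays, a separation that 11.0% of all genes with a value on every array had. Mn1 stands in both counts, although it met the background filter through its LSK arrays alone. Its place in them therefore carries no weight of its own.

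Hoxa9, the cluster member best known for sustaining self-renewal and for driving myeloid leukaemia, read from -2.29 to -1.21 in GMPs with a median of -1.89, against -0.59 to 0.37 with a median of 0.14 in LSK cells. The groups did not overlap, and the difference of -1.78 (SE 0.18, adjusted p = 0.000190, 3.43-fold lower) had the same sign in 6 of 6 conditions, from -2.39 in Tet2KD/KD to -1.22 in MDS/MPN. With normexp it was -1.15. A second Hoxa9 probe read -2.18 to -1.42 in GMPs against -0.67 to 0.08 in LSK cells, so both probes separated the cell types.

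Meis1, which anchors HOXA9 complexes on DNA, had the smallest SE of the 10 genes. It read 1.36 in RAEB, 1.30 in MDS/MPN, 1.31 in double mutant, 1.80 in Ezh2-/-, 1.98 in Tet2KD/KD and 1.82 in wild-type GMPs, against 4.73, 4.52, 4.82, 4.94, 5.42 and 5.11 in LSK cells of the same conditions. The 2 groups lay far apart, and the difference per condition ran only from -3.51 to -3.14. The fitted difference was -3.33 (SE 0.11, adjusted p = 4.67e-06, 10.0-fold lower in GMPs). Mn1 was not well above background on any GMP array and read 0.35 to 1.69 on the 6 LSK arrays, with a median of 0.80. It was therefore at least 29.1-fold lower in GMPs, where the bound sets the LSK mean of 0.87 against the lowest signal that counted as well above background on each GMP array (measured GMP mean -5.95). Mn1 met the background filter through its LSK arrays alone, and its adjusted p of 1.22e-06 rests on GMP signals at background. This bound holds for the processed signal: with normexp background correction, which adds an offset to every signal, the Mn1 difference was -2.87 and still passed.

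Hoxa3, Hoxa5 and Hoxa7 also fell. Hoxa3, needed for thymus and parathyroid development, read -3.46 to -1.55 with a median of -2.59 in GMPs against -0.89 to 0.22 with a median of -0.12 in LSK cells, a difference of -2.40 (SE 0.26, adjusted p = 0.000296) that was -1.37 with normexp. Hoxa5, needed for lung development, read -3.46 to -1.87 in GMPs against -1.82 to -0.71 in LSK cells and fell by 1.55 (SE 0.29, adjusted p = 0.00410), or by 0.65 with normexp. The lowest LSK value of Hoxa5 and its highest GMP value both came from diseased cells and lay next to each other. Hoxa7, which with Hoxa9 is often activated beside Meis1 in mouse leukaemias, read 2.07 to 3.22 in GMPs against 3.38 to 3.80 in LSK cells, a difference of -0.84 (SE 0.15, adjusted p = 0.00299). Hoxa7 was well above background on all 12 arrays, as were Hoxa3, Hoxa5, Hoxa9, Meis1 and Pbx3.

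Hoxa10, a posterior cluster member that expands progenitors when overexpressed, was well above background on 3 of 6 GMP arrays, against 6 of 6 in LSK cells. Those 3 read -3.00 in MDS/MPN, -2.96 in the double mutant and -2.68 in Ezh2-/- GMPs, against -1.30, -0.17 and 0.04 in LSK cells of the same conditions. Hoxa10 passed as lower in GMPs (adjusted p = 0.00330), but its measured difference of -3.45 (SE 0.62) includes the signals at background. With the signals of Tet2KD/KD and wild-type GMPs raised to the lowest signal well above background on their arrays, it was -2.80, and with normexp -1.29. Hoxa6, which lies between Hoxa5 and Hoxa7, read -4.12 to -2.22 in GMPs, where 4 of 6 arrays were well above background, against -3.08 to -1.95 in LSK cells. The ranges overlapped, and its difference of -0.74 (SE 0.29) missed the threshold (adjusted p = 0.0730), which it passed under 5 of 21 alternatives (range 0.0308 to 0.631), among them leaving out either RAEB array (0.0308). Hoxa4, whose overexpression expands stem cells, was well above background on 2 of 6 GMP and 3 of 6 LSK arrays and its difference of 0.67 (SE 0.41) did not pass (adjusted p = 0.213), except when either wild-type array was left out (0.0185). Pbx3, the TALE cofactor that raises HOXA9 activity in leukaemia, read -1.36 to 1.82 in GMPs against -0.61 to 2.18 in LSK cells. Its ranges overlapped almost fully, yet within conditions GMPs were lower in 6 of 6 and the difference of -0.60 (SE 0.15) passed (adjusted p = 0.0153, 0.0048 to 0.0514 over 21 alternatives, of which 19 passed, and without either wild-type array it was 0.0514). With condition as a block, leaving out either array of a condition gives the same fit. The 21 alternatives of each gene count every such fit once for each array.

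**Figure D1:**
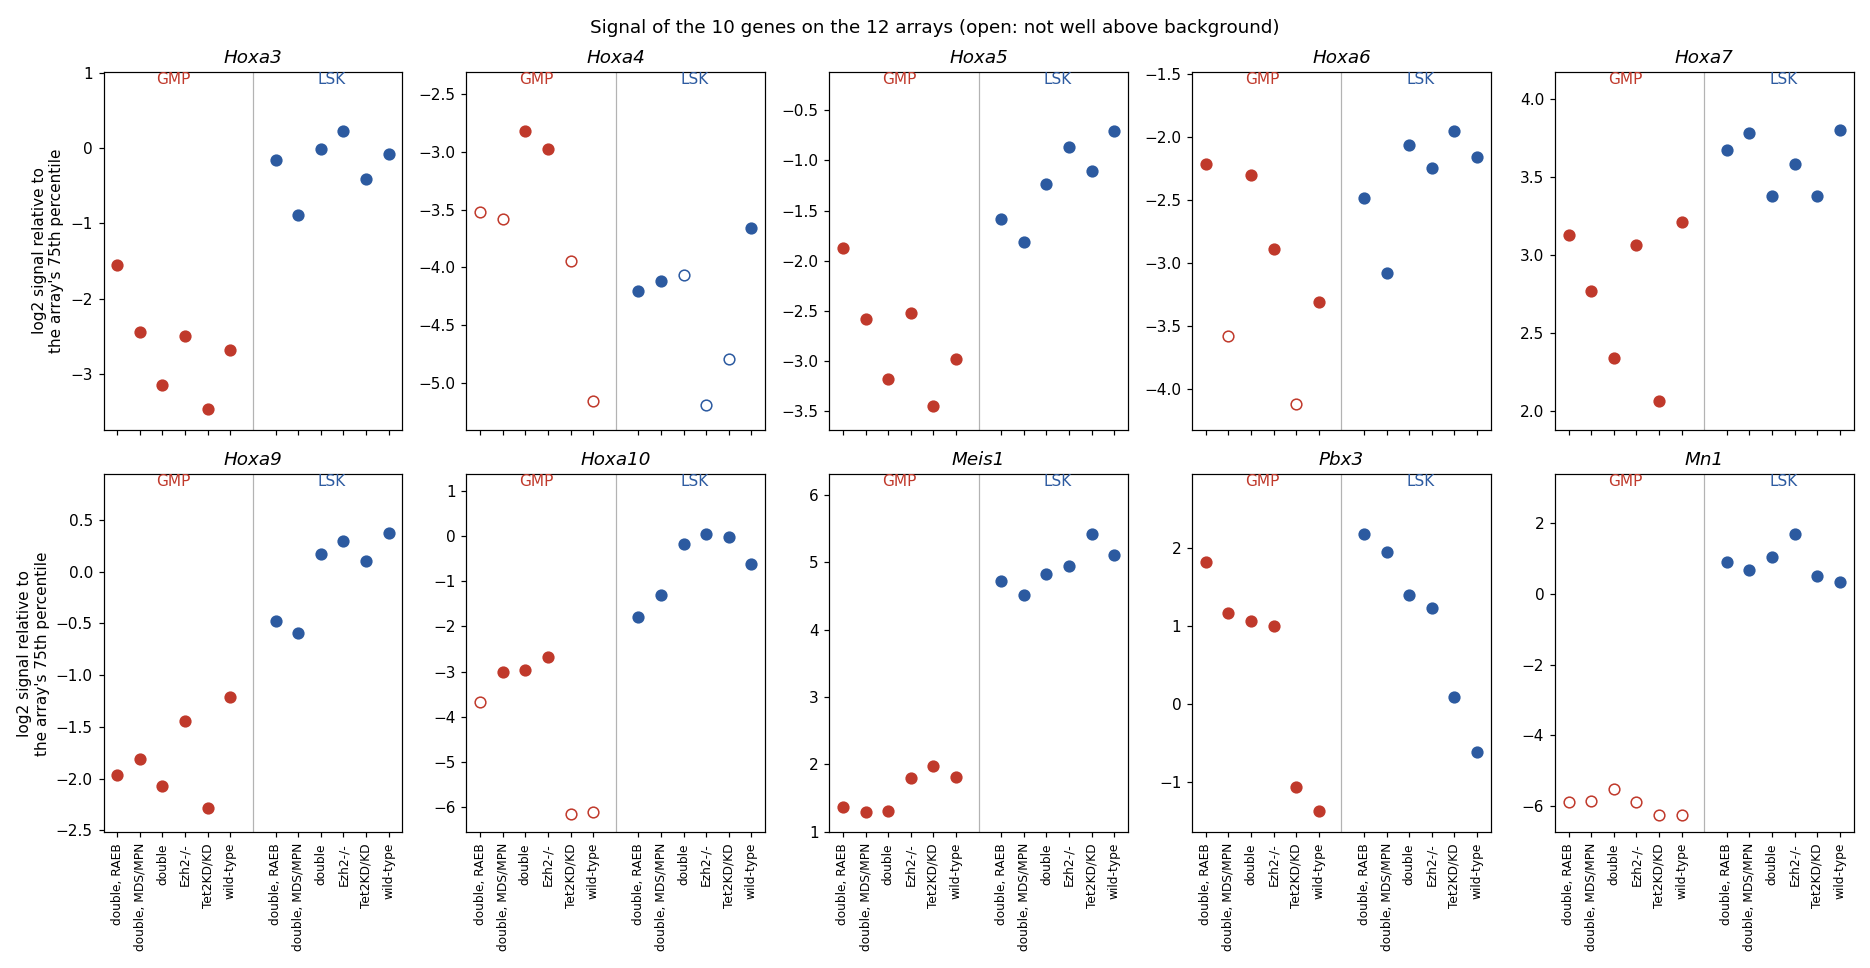
Log2 signal of each of the 10 genes (y axis, relative to the array's 75th percentile, own scale per gene) on the 12 arrays, with the 6 GMP arrays in red on the left and the 6 LSK arrays in blue on the right, each in the order double mutant with RAEB, double mutant with MDS/MPN, double mutant, Ezh2-/-, Tet2KD/KD and wild-type. Open circles were not well above background. Mn1 is open on all 6 GMP arrays, Meis1 is separated by cell type without overlap, and Pbx3 separates the 4 arrays with Ezh2-/- from the Tet2KD/KD and wild-type arrays in each cell type.

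**Figure D2:**
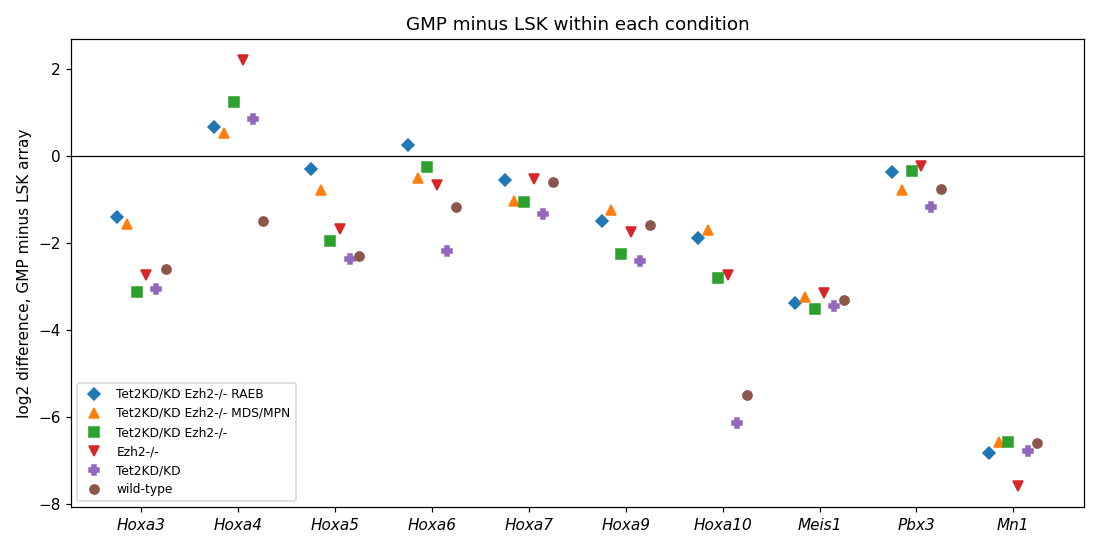
Log2 difference of the GMP array minus the LSK array (y axis) for each of the 10 genes (x axis), 1 marker per condition. The markers of Meis1 lie between -3.51 and -3.14, those of Hoxa10 lie lowest in Tet2KD/KD and wild-type, where the GMP signal was not well above background, and those of Mn1 are measured differences against GMP signals at background.

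The marker lists moved with the same contrast: the erythroid list summed to 1.60 to 2.73 on GMP arrays against 37.3 to 52.5 on LSK arrays, and Mecom and Slamf1 of the stem list were not well above background on any GMP array. Fewer cells of a type and less RNA per cell cannot be told apart in sorted bulk samples, and the part of cell composition in these differences was not tested. Without the 4 diseased arrays the GMP and LSK comparison called 7196 genes.

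Genes around the members were described by lists. Among known targets of Hoxa9 or Meis1 in leukaemia models, 9 of 14 tested passed, all 9 lower in GMPs, where 18.9% of all genes were called lower. The list median was -0.96, against 0.16 over all genes. Hlf, a stem cell transcription factor, fell by 4.13 (SE 0.21) and the receptor gene Flt3 by 3.75 (SE 0.58), while Trib2, a pseudokinase gene, was at least 4.55-fold lower since it was not well above background on any GMP array. Trib2 is among the 9 although it met the background filter through its LSK arrays alone. Camk2d (-1.90), Sox4 (-1.73) and Erg (-1.67) also fell, and Hlf stands in the stem marker list as well. Of the genes for the MLL and DOT1L complexes, which maintain HoxA transcription, 7 of 15 tested passed, 3 higher and 4 lower in GMPs, a share near the 44.6% of all genes called in either direction. Mllt3, which encodes the AF9 subunit, fell by 1.87 (SE 0.26), Mllt6 fell by 0.81 and Kat6a by 0.77. Aff1 rose by 0.83 and Dpy30 by 0.84. Of the other TALE genes 2 of 7 tested passed, Tgif2 at -1.16 and Pbx4 at -0.79, which is no larger a share than that of all genes called in either direction. Within the cluster itself, Hoxa2 was well above background on 0 of 6 GMP and 5 of 6 LSK arrays, so it met the filter through LSK cells alone. By the processed signal it was at least 1.44-fold lower in GMPs, with the wild-type LSK signal, also at background, entered as measured. Its call (adjusted p = 0.000344) rests on GMP signals at background and was lost with normexp (difference -0.15, adjusted p = 0.432). In none of the 5 other comparisons did a gene of these 4 lists pass the threshold.

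Ezh2 loss was tested on the 8 arrays without disease, 4 against 4, with cell type and Tet2 genotype as terms, to see which genes change without Ezh2 in both populations. Pbx3 rose, the other 9 genes did not pass, and 26 of all genes did. Pbx3 thus was 1 gene of 10, where 0.168% of all genes were called higher (23 genes). In GMPs Pbx3 read 1.07 in the double mutant and 1.00 in Ezh2-/-, against -1.07 in Tet2KD/KD and -1.36 in wild-type. In LSK cells it read 1.39 in the double mutant and 1.22 in Ezh2-/-, against 0.09 in Tet2KD/KD and -0.61 in wild-type. Both mutant arrays lay above both Ezh2 wild-type arrays in each cell type, and each matched pair differed by 1.30 to 2.36. The fitted difference was 1.91 (SE 0.18, adjusted p = 0.0294, 3.75-fold higher), rank 13 by p among the 26 genes that passed. The call passed under 8 of 17 alternatives with a range of adjusted p from 0.0011 to 0.117. It was lost when any 1 array other than the Tet2KD/KD LSK array was left out (0.0756 to 0.117), while the difference itself stayed between 1.76 and 2.09.

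In GMPs Hoxa10 read -2.96 in the double mutant and -2.68 in Ezh2-/-, well above background on both, and was not well above background in Tet2KD/KD or wild-type, which makes it at least 2.58-fold higher with Ezh2 loss there by the processed signal. In LSK cells it read -0.17 in the double mutant and 0.04 in Ezh2-/-, against -0.02 in Tet2KD/KD and -0.63 in wild-type, a difference of 0.26 that lay within the spread of those arrays. The Hoxa10 effect shared by both cell types did not pass (1.78, SE 0.62, adjusted p = 0.464), and neither did the difference between the cell types (adjusted p = 0.167, 0.0823 to 0.896 over 15 alternatives). That measured difference of 3.04 rests on the GMP signals at background. It was 1.10 with them raised to the lowest signal well above background on their arrays and 0.54 with normexp. In that test 0% of all genes were called, 802 genes had an unadjusted p under 0.05, and none of the 10 genes passed.

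Other members moved less. Hoxa4 was well above background in the double mutant (-2.82) and Ezh2-/- (-2.97) GMPs and not in Tet2KD/KD or wild-type GMPs, at least 2.24-fold higher, while in LSK cells it was above background without disease only in wild-type. With the diseased arrays included, all 4 Ezh2-/- GMP arrays lay above both Ezh2 wild-type GMP arrays for Hoxa4, Hoxa10, Pbx3 and Mn1, a pattern that 10.7% of all genes had, although Mn1 was at background throughout as were the diseased Hoxa4 signals and the RAEB Hoxa10 signal. In LSK cells the same held for Pbx3 and Mn1 among the 10, against 8.06% of all genes. Mn1 read 1.04 in double mutant and 1.69 in Ezh2-/- LSK cells, against 0.52 in Tet2KD/KD and 0.35 in wild-type, and its shared difference was 0.74 (adjusted p = 0.281). Hoxa3, Pbx3 and Mn1 were higher with Ezh2 loss in 4 of 4 matched pairs, where 7.74% of all genes were, and Hoxa3 differed by only 0.30 (SE 0.13, adjusted p = 0.569). Meis1 was lower in 4 of 4 pairs, from -0.67 to -0.018 (difference -0.36, SE 0.15, adjusted p = 0.560), and the share of all genes lower in all 4 was not counted. Hoxa9 differed by -0.0063 (SE 0.17), with pairs from -0.23 to 0.22, and Hoxa7 by -0.023 (SE 0.17), so no shared difference was seen for these above the spread of the pairs.

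**Figure D3:**
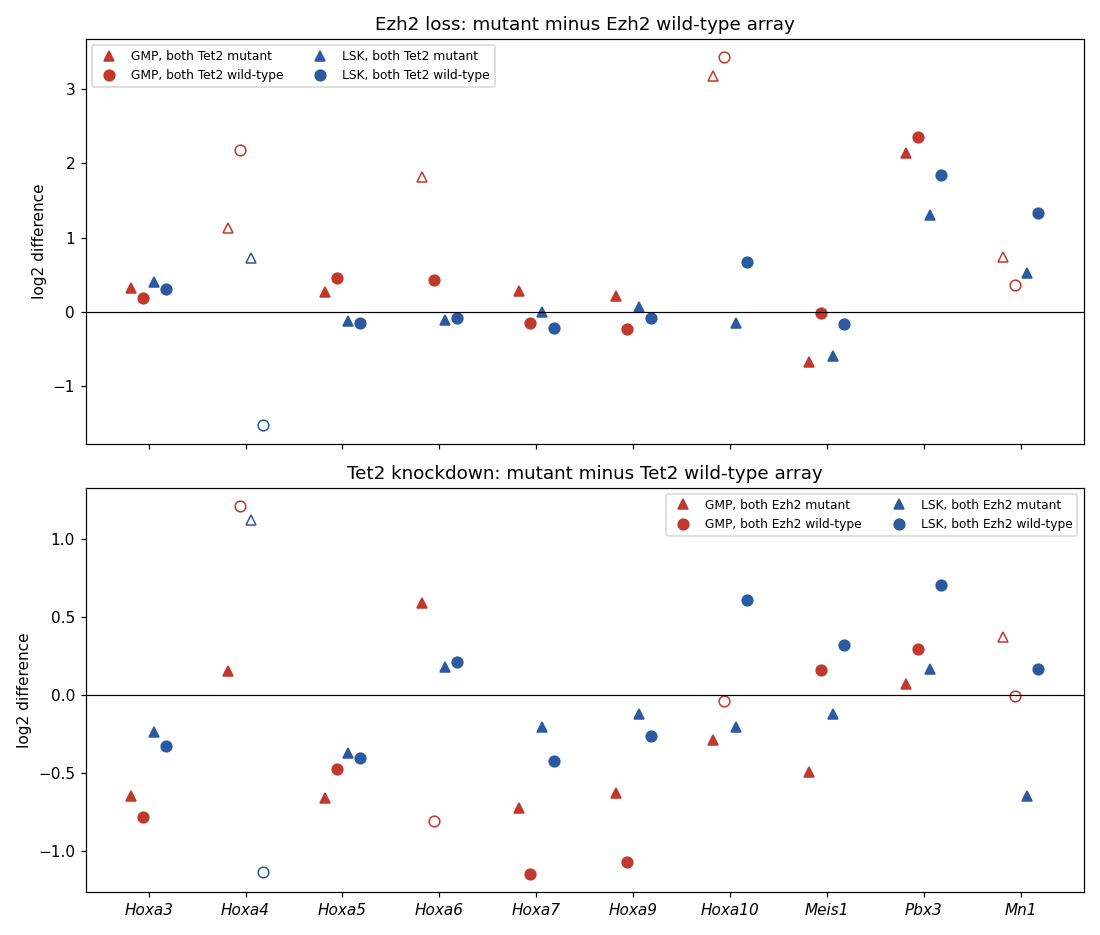
Log2 difference between matched arrays without disease (y axis) for each of the 10 genes (x axis), Ezh2-/- minus Ezh2 wild-type in the upper panel and Tet2KD/KD minus Tet2 wild-type in the lower panel, with GMP pairs in red and LSK pairs in blue and triangles where both arrays carried the other mutation. Open symbols mark pairs in which 1 or both signals were not well above background. In the upper panel Pbx3 lies between 1.30 and 2.36 in all 4 pairs and the Hoxa10 GMP pairs are open, so that their height is not a measured size. In the lower panel Hoxa3, Hoxa5, Hoxa7 and Hoxa9, each by its brightest probe, lie below 0 in all 4 pairs.

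Tet2 knockdown was tested on the same 8 arrays with Ezh2 genotype as a term. None of the 10 genes passed, and 0% of all genes did, with 787 genes at an unadjusted p under 0.05. By the brightest probe Hoxa3, Hoxa5, Hoxa7 and Hoxa9 were lower in 4 of 4 matched pairs, where 7.11% of all genes were. Hoxa7 read 2.34 in double mutant against 3.07 in Ezh2-/- GMPs, and 2.07 in Tet2KD/KD against 3.22 in wild-type GMPs. Hoxa7 read 3.38 in double mutant against 3.58 in Ezh2-/- LSK cells, and 3.38 in Tet2KD/KD against 3.80 in wild-type LSK cells. Its difference of -0.62 (SE 0.17) had an unadjusted p of 0.00834 and an adjusted p of 0.781. The pairs of Hoxa9 ran from -1.07 to -0.12 with a difference of -0.52 (SE 0.17, adjusted p = 0.818), and both GMP pairs were the larger ones. The second Hoxa9 probe was higher in 1 pair, at -0.18 in Tet2KD/KD against -0.37 in wild-type LSK cells, and lower in the others. Hoxa3 differed by -0.50 (SE 0.13, adjusted p = 0.781) and Hoxa5 by -0.48 (SE 0.14, adjusted p = 0.818). With normexp the differences were -0.16 for Hoxa3, -0.15 for Hoxa5 and -0.31 for Hoxa9, while Hoxa7 stayed at -0.60. Pbx3 was higher in 4 of 4 pairs by 0.07 to 0.70 (adjusted p = 0.818), and the share of all genes higher in all 4 was not counted. Meis1 differed by -0.03 (SE 0.15), higher in 2 pairs and lower in 2.

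The diseased arrays were set against the disease-free double mutant, which separates disease from genotype, and against wild-type. Against the double mutant none of the 10 genes passed, and 1 of all genes did (0.00730%, Bst1, named after its value was seen), while 1881 genes had an unadjusted p under 0.05. Against wild-type Pbx3 was the only one of the 10 to pass, where 0.0802% of all genes were called higher (11 genes). Pbx3 read 1.82 in RAEB and 1.16 in MDS/MPN GMPs, against 1.07 in the double mutant and -1.36 in wild-type, and 2.18 and 1.94 in RAEB and MDS/MPN LSK cells, against 1.39 and -0.61. In each cell type the 2 diseased arrays were the highest of all. The difference of diseased double mutant and wild-type was 2.76 (SE 0.23, adjusted p = 0.0227, 6.78-fold higher), rank 1 by p among all genes tested, and that of diseased and disease-free double mutant was 0.55 (SE 0.23, adjusted p = 0.357). The first call passed under 12 of 20 alternatives (0.0043 to 0.402). It was lost with slide as a random block (0.402), which was chosen after the data were seen, and without either wild-type array (0.166 and 0.264), either disease-free double mutant array (0.0698 each), either MDS/MPN array (0.103 and 0.0927) or the RAEB GMP array (0.0534). Diseased and other arrays lay on different slides, so for the diseased samples slide and disease cannot be told apart. Within GMPs, where the diseased arrays also differed from wild-type in Xist, the Pbx3 difference was 2.85, and within LSK cells, where they did not, it was 2.67. Each rests on 1 wild-type array, and the part of the Xist pattern in them was not tested.

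Relative to the disease-free double mutant, several HoxA genes of diseased cells lay on opposite sides in the 2 cell types. This contrast was not tested, and slide and disease cannot be told apart in it. In LSK cells both diseased arrays lay below the other 4 for Hoxa5, Hoxa6, Hoxa9, Hoxa10 and Meis1, 5 of the 10 genes, where 18.3% of all genes did so. Hoxa10 read -1.78 in RAEB and -1.30 in MDS/MPN LSK cells, against -0.17 in the double mutant, 0.04 in Ezh2-/-, -0.02 in Tet2KD/KD and -0.63 in wild-type. Hoxa9 read -0.47 in RAEB and -0.59 in MDS/MPN LSK cells, against 0.17 in the double mutant, 0.29 in Ezh2-/-, 0.11 in Tet2KD/KD and 0.37 in wild-type. Over both cell types Hoxa9 differed from wild-type by -0.79 (SE 0.27, adjusted p = 0.203) and Meis1 by -0.48 (SE 0.17, adjusted p = 0.204), so neither passed.

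In GMPs the diseased arrays were the higher ones for Hoxa3, Hoxa5 and Hoxa7 relative to the double mutant. Hoxa3 read -1.55 in RAEB and -2.45 in MDS/MPN GMPs, against -3.14 in the double mutant and -2.68 in wild-type. Hoxa5 read -1.87 in RAEB and -2.59 in MDS/MPN GMPs, against -3.18 in the double mutant and -2.98 in wild-type. Both were highest in RAEB among the 6 GMP arrays, and Hoxa7 was higher than in the double mutant by 0.79 in RAEB and 0.43 in MDS/MPN (0.48, SE 0.22, adjusted p = 0.387 over both cell types). Relative to wild-type GMPs Hoxa7 was not higher, with differences of -0.08 in RAEB and -0.45 in MDS/MPN. Hoxa10 was -3.67, not well above background, in RAEB and -3.00 in MDS/MPN GMPs, against -2.96 in the double mutant. Some marker sums moved with disease: the mature neutrophil list summed to 639 in RAEB and 140 in MDS/MPN GMPs against 23.9 to 42.2 in disease-free GMPs. In LSK cells it summed to 334 in MDS/MPN against 10.3 to 90.0 without disease, and RAEB at 14.7 lay within that range. The LSK and stem marker list summed to 87.5 in RAEB and 83.5 in MDS/MPN LSK cells against 97.8 to 137 in disease-free LSK cells. The GMP list summed to 987 and 1375 in diseased LSK cells against 303 to 481 in disease-free LSK cells, and the megakaryocyte list to 13.0 and 31.0 in diseased GMPs against 1.91 to 3.25 in disease-free GMPs. In this neutrophil list Mmp9 was not well above background on any of the 12 arrays. The part of these cells in the values of the 10 genes was not tested.

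**Figure D4:**
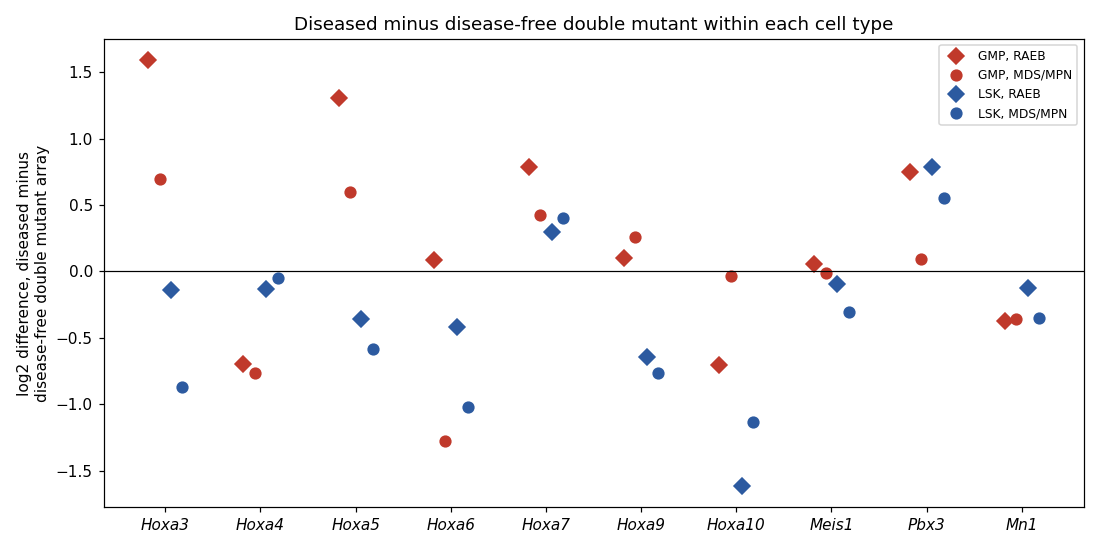
Log2 difference of each diseased array minus the disease-free double mutant array of the same cell type (y axis) for each of the 10 genes (x axis), GMP in red and LSK in blue, with diamonds for RAEB and circles for MDS/MPN. Hoxa3 and Hoxa5 lie above 0 in both GMP comparisons, with 1.59 and 1.31 in RAEB, and below 0 in both LSK comparisons, and Pbx3 lies above 0 in all 4.

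How the members varied with each other is a description over 12 arrays that share slides, donors of unknown identity and the scaling. After the mean of each cell type was removed, Hoxa3 and Hoxa5, neighbours but for Hoxa4, had the highest Pearson r of the 45 pairs at 0.89. Meis1 and Pbx3 had the lowest at -0.80, and Hoxa9 and Meis1 had 0.46. Over the 12 arrays without that step Hoxa9 and Meis1 had 0.94 and Meis1 and Mn1 0.97, where both cell types' levels contribute. Among 12338 other genes with a probe well above background on at least 6 arrays, the 5 most like Hoxa9 were Fam169b (r 0.99), Bmp7, Ankrd33b, Myl10 and Pabpc4l (0.97 each), and with cell type means removed Msx3 (0.92), Fam169b, Hrc, Ankrd33b and F9. Those most like Meis1 were Ddah2, Car2, Gata3, Cdk17 and Nkx2-3 (all 0.99), and with cell type means removed Tmc2 (0.91), Plaat3, Nub1, Trim43c and Rwdd2a. Those most like Pbx3 were Rab15 (0.96), Epdr1, Serpinb6a, Spire1 and Bmpr1a (0.92), and with cell type means removed Rab15 (0.97), Fbln1, Spire1, Agrn and Bmpr1a (all 0.96). Of these, Spire1 and Bmpr1a also passed in the comparison of Ezh2 loss, which used 8 of the same arrays.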

How the data were processed

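Per the labels' protocols, total RNA was extracted with Trizol, mixed with spike-in controls, amplified and labelled with Cy3. The scanner output was made with Feature Extraction 10.7.1.1, per the file headers. Its deposited processed signal is a linear intensity from which the software had subtracted background. The spot and background signals used for 1 alternative are deposited intensities too, and the deposited flags for control spots, outlying spots and signal well above background carry no unit (other). The authors' value table equalled the processed intensity at 62976 spots per array and is a linear intensity.

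From these, log2 of the processed signal minus log2 of the array's 75th percentile (168.5 to 389.4) over gene spots was computed with Python 3.11.15, outlying spots were left out, and spots of a probe were averaged. A probe with only outlying spots on an array has no value there (143 values). Names came from a GRCm38.p6 gene table by RefSeq accession: of 55681 probes 26762 had 1 symbol, 0 had several and 28919 had none. Two-sided tests were run with lmFit and eBayes of limma 3.58.1 (R 4.3.3), and p-values were adjusted by Benjamini-Hochberg over 13708 genes, with a threshold of 0.05. GMP and LSK were compared with condition as a block, Ezh2 and Tet2 with terms for cell type and for the other mutation, and disease in a fit of 12 arrays with cell type and condition. Scripts were tested on simulated data. The number of arrays limits the precision.

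Alternatives were another background correction, another normalisation or percentile, other filters, the mean of all probes, trended robust moderation, other array sets and leaving out each array. Named genes were the 10 members, Tet2 and Ezh2, list genes past the threshold (the 6 with the smallest p where more passed) and the 5 most correlated genes of Hoxa9, Meis1 and Pbx3. The members and lists were chosen with earlier results of these data known. The result of 1 further gene among the lists is not reported here.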

Additional observations from a re-analysis of the deposited data

Results flagged for a closer look

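Hoxa3, Hoxa5 and Hoxa9 were higher than the disease-free double mutant on both diseased GMP arrays and lower than it on both diseased LSK arrays. The mean difference in GMPs minus that in LSK cells was 1.65 for Hoxa3, 1.43 for Hoxa5 and 0.88 for Hoxa9 on the log2 scale. Relative to wild-type GMPs, Hoxa9 was lower on both diseased GMP arrays (-0.75 in RAEB and -0.60 in MDS/MPN). The difference between the cell types was not tested, and it rests on 1 double mutant array in each cell type. Diseased LSK and diseased GMP arrays lay on separate slides, and neither slide held the double mutant arrays. The 75th percentile was 389.4 and 369.2 on the diseased LSK arrays against 250.8 on the double mutant LSK array. On the diseased GMP arrays it was 168.5 and 188.8 against 194.8. The part of slide and scaling in this contrast was not tested. No sample stood apart from the other 5 of its cell type beyond Dixon's critical value for any of the 10 genes, over 20 gene and cell type combinations.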

How the results depend on the processing

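The 8 members lower in GMPs passed in every alternative except Pbx3, which passed in 19 of 21. Their sizes stayed within 1.5 times except with normexp, where the difference was -1.29 for Hoxa10 (-3.45), -0.65 for Hoxa5 (-1.55), -1.37 for Hoxa3 (-2.40), -1.15 for Hoxa9 (-1.78) and -2.87 for Mn1 (-6.81), with the values of the processed signal in brackets. The Ezh2 effect on Hoxa10 was also smaller with normexp, at 0.42 (1.78) for the shared effect and 0.54 (3.04) for GMPs against LSK cells. In the comparison of GMPs with LSK cells, Hoxa6 also passed with the percentile over detected probes, on the 8 arrays without disease and with slide as a random block, a setting chosen after the data were seen. The number of genes that passed with Ezh2 loss was 26, against 74 with normexp background correction, 78 with trended robust moderation, 17 with quantile normalisation, 12 with no filter and 7 with the Tet2 by Ezh2 interaction as a term, and 0 to 10 when 1 array was left out. Among the 10 genes the number that passed was 0 with no filter and with the interaction, and 0 to 1 when 1 array was left out. For the Ezh2 effect in GMPs against that in LSK cells, 6 genes passed with normexp and 4 with trended robust moderation, and 0 to 1 when 1 array was left out, as for Tet2 knockdown (0 to 1). For diseased against disease-free double mutant the number was 0 with normexp, no filter, the stricter filter of 6 or more arrays, the mean of all probes, trended robust moderation, the 6 double mutant arrays alone and slide as a random block, and 0 to 22 when 1 array was left out. For diseased double mutant against wild-type 12 genes passed, against 3 with no filter, 19 with the stricter filter, 0 with slide as a random block (0 of the 10 genes) and 0 to 71 when 1 array was left out (0 to 1 of the 10 genes). The causes were not tested.

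Signs turned only for differences that did not pass. Hoxa9 with Ezh2 loss was 0.0065 with the percentile over detected probes and 0.044 with the mean of all probes. Hoxa9 in the Ezh2 effect by cell type was 0.020 with normexp, 0.0057 with quantile normalisation and 0.0065 with that percentile. Hoxa10 with Tet2 knockdown was -0.0068 with that percentile. Against the disease-free double mutant Hoxa3 was -0.052 and Hoxa5 -0.0056 with normexp. Against wild-type Hoxa3 was -0.055 with that percentile, Hoxa6 0.023 with quantile normalisation and Hoxa10 -0.090 with normexp. With 1 array left out, further differences that did not pass crossed 0. For Tet2 knockdown they ran from -0.51 to 0.48 for Hoxa10, -0.14 to 0.96 for Hoxa4, -0.25 to 0.41 for Hoxa6, -0.12 to 0.087 for Meis1 and -0.18 to 0.17 for Mn1. For diseased double mutant against wild-type they ran from -0.29 to 2.15 for Hoxa10, -0.18 to 0.42 for Hoxa3, -0.74 to 1.85 for Hoxa4, -0.56 to 0.32 for Hoxa5 and -0.41 to 0.20 for Hoxa6. For the Ezh2 effect in GMPs against LSK cells they ran from -0.29 to 0.085 for Hoxa3, -0.17 to 0.52 for Hoxa7, -0.37 to 0.37 for Hoxa9, -0.27 to 0.34 for Meis1 and -0.80 to 0.027 for Mn1. For diseased against disease-free double mutant they ran from -0.11 to 0.75 for Hoxa3, -0.14 to 0.62 for Hoxa5, -0.54 to 0.016 for Hoxa9 and -0.20 to 0.024 for Meis1. For Ezh2 loss they ran from -0.18 to 0.10 for Hoxa7 and -0.14 to 0.13 for Hoxa9.

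A slide term for Ezh2 loss was not run, since the 8 arrays without disease shared 1 slide. On that slide LSK and GMP arrays held separate columns, so position and cell type cannot be told apart. Hoxa4, Hoxa6, Hoxa10 and Mn1 were at background on some arrays, where their differences are limited by signal.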
